A study of Homo sapiens with 12 samples.

Results

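TGM2 and TGM1 encode transglutaminases. They were taken by their symbols from a deposited count table, as 2 of its 8579 genes, and are the 2 of 10 listed members of the family that the table holds. The libraries come from A375, an established human melanoma cell line with an activating BRAF mutation, grown as a bulk culture. Per the labels, cells were exposed for 72 hours to SEL201 at 2.5 µM (SEL201), to OTX015 at 50 nM (OTX015) or to these 2 doses together (COMBO), and the remaining libraries, titled UNTREATED, carry the treatment label DMSO, the drug solvent. The 4 groups hold 3 libraries apiece, and the labels number them 1, 2 and 3. SEL201 blocks MNK1 and MNK2, the kinases of the cap-binding protein eIF4E. OTX015 keeps BET proteins from acetylated histones and so affects transcription. A single line at 1 dose of each agent and 1 time limits what the groups stand for, and MNK or BET activity itself was not measured in these files.

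Transglutaminases are calcium-dependent enzymes that join a glutamine of one protein to a lysine of another, or to a polyamine, and so weld proteins into stable networks. TGM2, tissue transglutaminase, is made in many cell types. It works inside the cell, at the cell surface and in the extracellular matrix, and it also binds GTP and can act as a G protein. TGM1, keratinocyte transglutaminase, is anchored to membranes and crosslinks the cornified envelope of the epidermis, and its loss causes an inherited scaling disorder of the skin. The series title names TGM2, so its changes below are a description of these libraries and not independent evidence. The human TGM2 gene is on chromosome 20 and TGM1 on chromosome 14.

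The column totals of the table ran from 15146071 to 24111541 counts, and mean counts per gene from 78.67 to 9158.7. The gene filter is not given, so absence of a family member or marker from the table does not show that it was not expressed. Levels are given as CPM, counts per 1000000 counts of a library's TMM-scaled total, so they are relative to the genes in the table. Of 16 melanocyte lineage markers, 10 were in the table. MITF, the lineage's transcription factor gene, averaged 147 to 173 CPM in the 4 groups, while the pigment cell genes PMEL and MLANA averaged no more than 6.58 CPM in any group. Of the markers of other cell types, KRT14, KDR and 4 of 6 fibroblast markers were in the table, and none of 5 leukocyte markers was. Their part in the results below was not tested, but some of them moved with TGM2. KRT14, 1 of 6 epithelial markers, was at 77.7 to 88.5 CPM in SEL201, 52.0 to 62.2 in OTX015, 36.0 to 42.0 in COMBO and 155 to 176 in UNTREATED. Of the fibroblast markers, PDGFRB, DCN and LUM had a lower mean in COMBO than in UNTREATED, and PDGFRA a higher one, with 25.2 CPM in COMBO and 17.9 CPM in UNTREATED. The 4 summed to 108 to 128 CPM in SEL201, 91.2 to 93.9 in OTX015, 76.2 to 84.0 in COMBO and 125 to 167 in UNTREATED. The 10 melanocyte markers summed to 840 to 883 CPM in SEL201, 806 to 848 in OTX015, 797 to 823 in COMBO and 965 to 1039 in UNTREATED. From UNTREATED to COMBO the mean of GPNMB alone fell by more than the mean of this sum, from 443 CPM to 213 CPM. The other measured melanocyte markers together were therefore not lower in COMBO. MITF, S100A1, MLPH and RAB27A also had lower means in COMBO, whereas S100B (103 CPM in COMBO and 54.1 CPM in UNTREATED), PAX3, TFAP2A, MLANA and PMEL had higher ones. KDR, 1 of 4 endothelial markers, was at 66.1 to 109 CPM in SEL201, 70.6 to 121 in OTX015, 101 to 157 in COMBO and 81.0 to 142 in UNTREATED.

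TGM2 was lower in every treated library than in every UNTREATED library, and it was lowest in the 3 COMBO libraries. In SEL201 it was at 211, 194 and 286 CPM in libraries 1, 2 and 3. In OTX015 it was at 222, 215 and 298 CPM. In COMBO it was at 114, 113 and 152 CPM. In UNTREATED it was at 620, 605 and 873 CPM. The ranges of SEL201 and OTX015 overlapped each other, and neither overlapped COMBO or UNTREATED. These values rest on 2304 to 17588 counts per library, for which counting error alone is 0.754% to 2.08%, whereas the coefficient of variation between the libraries of a group was 17.7% to 21.5%. In bulk RNA, fewer cells that express a gene and less RNA per cell cannot be told apart.

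TGM2 stood near the top of the table without the agents and in its middle with both. Only 5, 5 and 2 of the 8579 genes had a higher CPM than TGM2 in UNTREATED libraries 1, 2 and 3. In SEL201 the number of genes above it was 1008 to 2116, in OTX015 908 to 1861 and in COMBO 2737 to 3425. These ranks are among genes of the table's range of mean counts only. The highest mean count in the table was 9158.7, below the 14454 to 17588 counts of TGM2 in the UNTREATED libraries. A gene that stayed at that level in all libraries is thus absent. Both the top rank and its loss depend on this limit, and they do not place TGM2 among all expressed genes.

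TGM1 was scarce in every group, and none of its comparisons passed the test. It was at 8.14, 7.76 and 9.02 CPM in SEL201 and at 6.54, 5.97 and 7.32 CPM in OTX015. In COMBO it was at 6.33, 6.52 and 11.2 CPM, against 7.21, 7.43 and 9.23 CPM in UNTREATED. The OTX015 range lay below the SEL201 range, and all other ranges overlapped. The counts were only 124 to 186 per library, for which counting error alone is 7.33% to 8.98%. The high value of COMBO library 3 made the coefficient of variation 34.3% in COMBO, against 7.8% to 14% in the other groups.

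**Figure D1:**
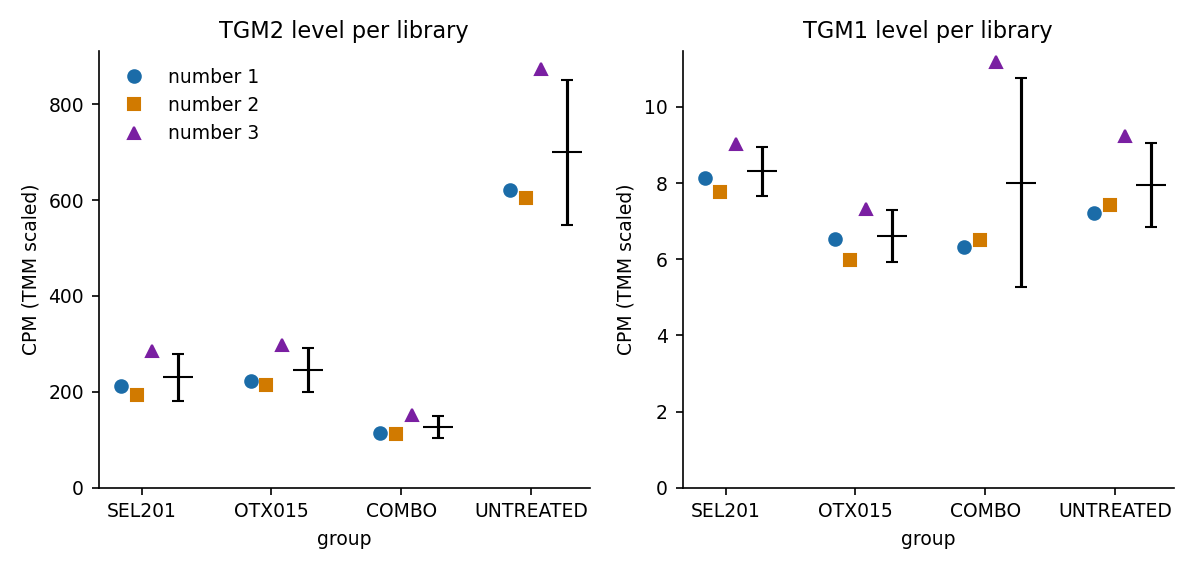
Level of TGM2 (left) and TGM1 (right) in each of the 12 libraries, in CPM after TMM scaling, by group, with the library number as colour and shape and the group mean ± SD as a black bar (n = 3). TGM2 was at 113 to 298 CPM in the 9 treated libraries and at 605 to 873 CPM in UNTREATED, while TGM1 stayed between 5.97 and 11.2 CPM, and library 3 was the highest of each group for both genes.

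Per kilobase of exon, TGM2 exceeded TGM1 in every library. TGM2 averaged 28.7 ± 6.07 CPM per kilobase in SEL201, 30.5 ± 5.74 in OTX015, 15.8 ± 2.79 in COMBO and 87 ± 18.7 in UNTREATED. TGM1 averaged 2.23 ± 0.174 CPM per kilobase in SEL201, 1.77 ± 0.18 in OTX015, 2.15 ± 0.735 in COMBO and 2.13 ± 0.297 in UNTREATED (mean ± SD, n = 3). Lengths are the summed exon bases of GENCODE release 29, which are 8036 for TGM2 and 3735 for TGM1. On the same per-length scale the level of TGM2 was 11.6 to 14.7 times that of TGM1 in SEL201, 15.8 to 18.9 times in OTX015, 6.34 to 8.38 times in COMBO and 37.9 to 43.9 times in UNTREATED. This ratio is taken within a library and needs no scaling between libraries. The 4 groups did not overlap in it, and the group means of its log2 value differed across the groups by an exact permutation test of the F statistic over all 369600 assignments of the libraries (p = 6.5e-05, the smallest this design can give). Permuted only within the library numbers, the exact permutation p was 0.0017, again the smallest possible. A ratio shows unequal change of the 2 genes and not which of them changed.

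SEL201 against UNTREATED asks what the MNK inhibitor does alone. TGM2 fell 3.04-fold (log2 change -1.60, SE 0.18, 95% interval -1.98 to -1.22, edgeR adjusted p = 3.16e-05), and 24 genes of the table had a more negative change. Among all genes 21.2% were called in this comparison, 11.1% lower and 10.1% higher. TGM1 had a log2 change of 0.06 (95% interval -0.36 to 0.49, edgeR adjusted p = 0.86), an interval that runs from 0.778 to 1.4 times the UNTREATED level.

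OTX015 against UNTREATED asks the same of the BET inhibitor. TGM2 fell 2.85-fold (log2 change -1.51, SE 0.18, 95% interval -1.89 to -1.13, edgeR adjusted p = 9.13e-06). More genes moved with this agent, so that 48.0% of all genes were called, 24.7% lower and 23.3% higher, and 151 had a more negative change than TGM2. TGM1 had a log2 change of -0.26 (95% interval -0.70 to 0.17, edgeR adjusted p = 0.302), with an interval from 0.617 to 1.12 times the UNTREATED level. It was lower than UNTREATED within each of the 3 library numbers, by 0.14 to 0.34 on the log2 scale.

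COMBO against UNTREATED asks what both agents do together. TGM2 was at 18.1% of its UNTREATED mean, a 5.54-fold fall (log2 change -2.47, SE 0.18, 95% interval -2.86 to -2.08, edgeR adjusted p = 5.97e-08). In this comparison 57.8% of all genes were called, 29.6% lower and 28.3% higher, and 68 had a more negative change. TGM1 had a log2 change of -0.01 (95% interval -0.43 to 0.42, edgeR adjusted p = 0.978), or 0.74 to 1.34 times the UNTREATED level. That value rests on COMBO library 3. Without it the log2 change of TGM1 was -0.30 (edgeR adjusted p = 0.124), and that against SEL201 was -0.37 (0.091).

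Adding the second agent lowered TGM2 further. COMBO was 1.82-fold below SEL201 (log2 change -0.87, SE 0.18, edgeR adjusted p = 0.00158), where 21.2% of all genes were called lower, and 1.94-fold below OTX015 (log2 change -0.96, SE 0.18, edgeR adjusted p = 0.00621). Between COMBO and OTX015 6.91% of all genes were called, 4.01% lower, against 22.2% called with the replicate block, and 22 of 8579 had a more negative change than TGM2. TGM1 had a log2 change of -0.07 between COMBO and SEL201 (95% interval -0.50 to 0.36, edgeR adjusted p = 0.816) and of 0.26 between COMBO and OTX015 (95% interval -0.18 to 0.69, adjusted p = 0.514).

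OTX015 against SEL201 asks whether the 2 agents differ, each at its 1 dose. For TGM2 the log2 difference was 0.09 (95% interval -0.29 to 0.47, edgeR adjusted p = 0.753), so a difference beyond 1.38-fold in either direction lay outside the interval, while 23.5% of all genes were called in either direction. With the replicate block the TGM2 difference was also 0.09, with an interval of 0.02 to 0.17 and an edgeR adjusted p of 0.0358, and OTX015 was the higher one within all 3 numbers. For TGM1 the log2 difference was -0.33 (95% interval -0.76 to 0.11, edgeR adjusted p = 0.267), and OTX015 was the lower one within all 3 numbers, by 0.30 to 0.38.

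Within groups, TGM2 followed the library numbers. Library 3 had the highest TGM2 level in each group, by a log2 deviation from the group mean of 0.33 in SEL201, 0.30 in OTX015, 0.28 in COMBO and 0.34 in UNTREATED. TGM1 was also highest in library 3 of each group, with deviations of 0.12, 0.15, 0.53 and 0.22 in the same groups. Of all genes tested, 11.6% were highest in library 3 of all 4 groups and 9.94% were lowest there, and 1.33% of genes had a larger mean deviation in library 3 than TGM2. The labels do not say what the numbers stand for, and the cause was not tested.

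Compared within a number, TGM2 fell almost equally in each. With SEL201 the log2 ratio to UNTREATED was -1.55, -1.64 and -1.61 in numbers 1, 2 and 3. With OTX015 it was -1.48, -1.49 and -1.55. With COMBO it was -2.44, -2.42 and -2.52, which left 18.4%, 18.7% and 17.5% of the UNTREATED level. The SD of these within-number ratios was 0.05, 0.04 and 0.05 in the 3 comparisons, while the SD of the TGM2 level among the libraries of a group was 0.25 to 0.30 on the log2 scale. For TGM1 the within-number ratio of COMBO to UNTREATED was -0.19, -0.19 and 0.28.

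**Figure D2:**
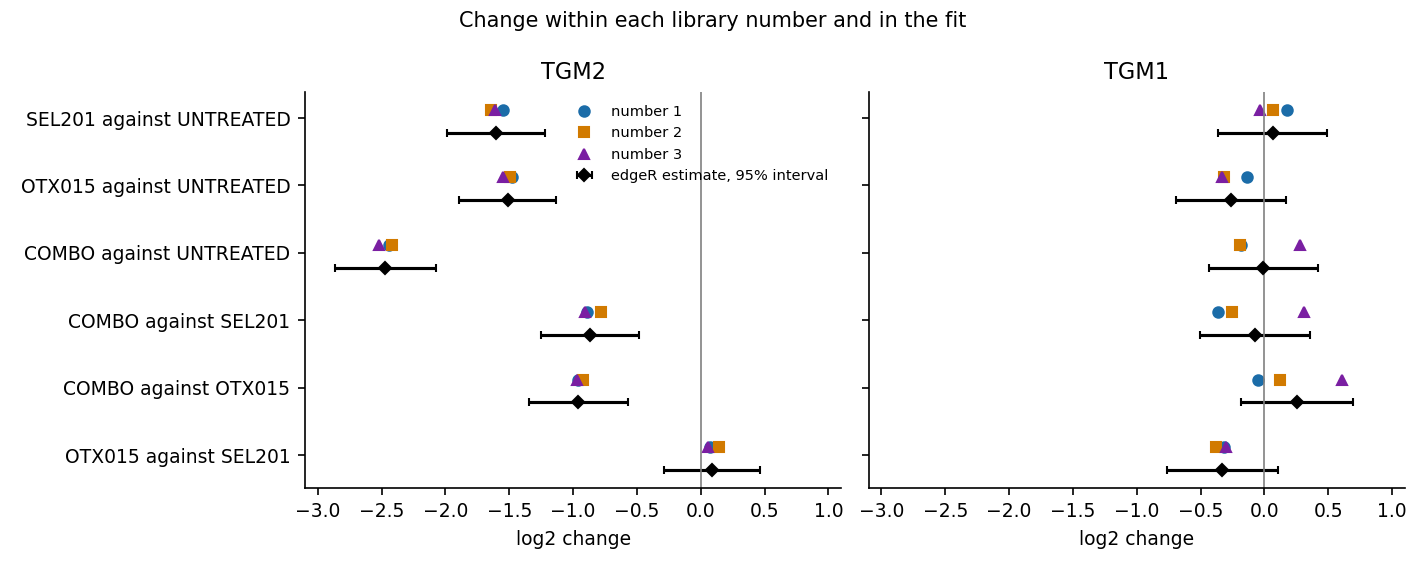
Log2 change of TGM2 (left) and TGM1 (right) in 6 comparisons, first group over second, as the ratio within each library number (coloured points) and as the edgeR estimate with its 95% interval (black). The SD of the 3 within-number ratios is 0.02 to 0.07 for TGM2 and 0.04 to 0.36 for TGM1.

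In the measured levels of TGM2 the 2 falls did not add up in full on the log2 scale, but the test of this passed in some fits only. If each agent left the same share of TGM2 whether or not the other was present, COMBO would have been at 75.8, 68.8 and 97.6 CPM in numbers 1, 2 and 3, whereas the measured values were 114, 113 and 152 CPM. The lower of the 2 single-agent libraries was at 211, 194 and 286 CPM in the same numbers, so COMBO lay between the product of the shares and the stronger single agent in each. The interaction, which is the change in COMBO less the changes of the single agents summed, was 0.59, 0.72 and 0.64 on the log2 scale in numbers 1, 2 and 3. Over all libraries it was 0.65 (SE 0.25, 95% interval 0.11 to 1.18), which did not pass adjustment over all genes (edgeR adjusted p = 0.397), and 0.280% of genes did. With the replicate block it was 0.65 with an interval of 0.55 to 0.75 and an edgeR adjusted p of 2.98e-10, in a fit that called 6.75% of all genes. Reading the numbers as pairs comes from the data and is not stated in the labels. Without the block, the interaction also passed when the 4 number 3 libraries were left out (0.65, edgeR adjusted p = 0.000848). It did not pass in any fit that left out 1 library (edgeR adjusted p = 0.175 to 0.686), under other scalings (0.382 to 0.402) or in DESeq2. For TGM1 the interaction was 0.19 (95% interval -0.42 to 0.80, edgeR adjusted p = 0.92).

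**Figure D3:**
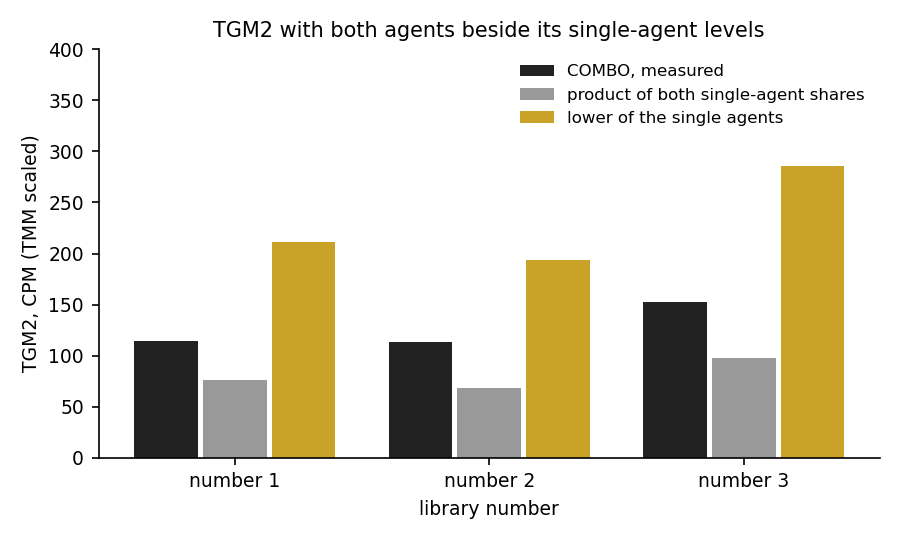
TGM2 level in CPM for each library number: the measured COMBO level (black), the product of the shares left by SEL201 and OTX015 alone times the UNTREATED level (grey), and the lower of the 2 single-agent levels (yellow). In all 3 numbers the measured COMBO level, 113 to 152 CPM, lies above the product, 68.8 to 97.6 CPM, and below the lower single agent, 194 to 286 CPM.

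The genes whose log2 CPM correlated most with TGM2 over the 12 libraries were LFNG, a glycosyltransferase gene that modifies Notch receptors, with r = 0.986, MYEOV with 0.983, ARHGEF28 with 0.978, SH2D2A, a signalling adaptor gene, and SRGAP1, a gene of the slit-robo pathway, with 0.977 each, and FSTL3, a follistatin-like activin antagonist gene, with 0.975. All 6 had lower means in each treated group than in UNTREATED and the lowest in COMBO, and they changed less than TGM2. Their log2 change with COMBO ran from -1.87 for SH2D2A to -0.77 for SRGAP1. LFNG averaged 43.2 CPM in COMBO and 82.1 CPM in UNTREATED. In all, 316 of the other 8578 genes had an r above 0.9 with TGM2. The points share groups, numbers and scaling, so r describes these libraries only. After removal of the number means the same 6 genes had r of 0.978 to 0.989 and ranked from 7 to 32.

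TGM1 had few close matches. Its highest correlations were with the myosin gene MYO16 (r = 0.918), the death receptor gene FAS (0.901), the p53 regulator gene MDM4 (0.877), BNIP3P17 (0.876), ZNF628 (0.868) and BTN2A3P (0.867), and 2 genes exceeded 0.9. Within groups, the deviations of these genes from their group means correlated with those of TGM1 at 0.863 to 0.932, so the match includes the high number 3 libraries. TGM2 and TGM1 correlated with each other at 0.225 over the 12 libraries and at 0.81 in their deviations from group means.

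**Figure D4:**
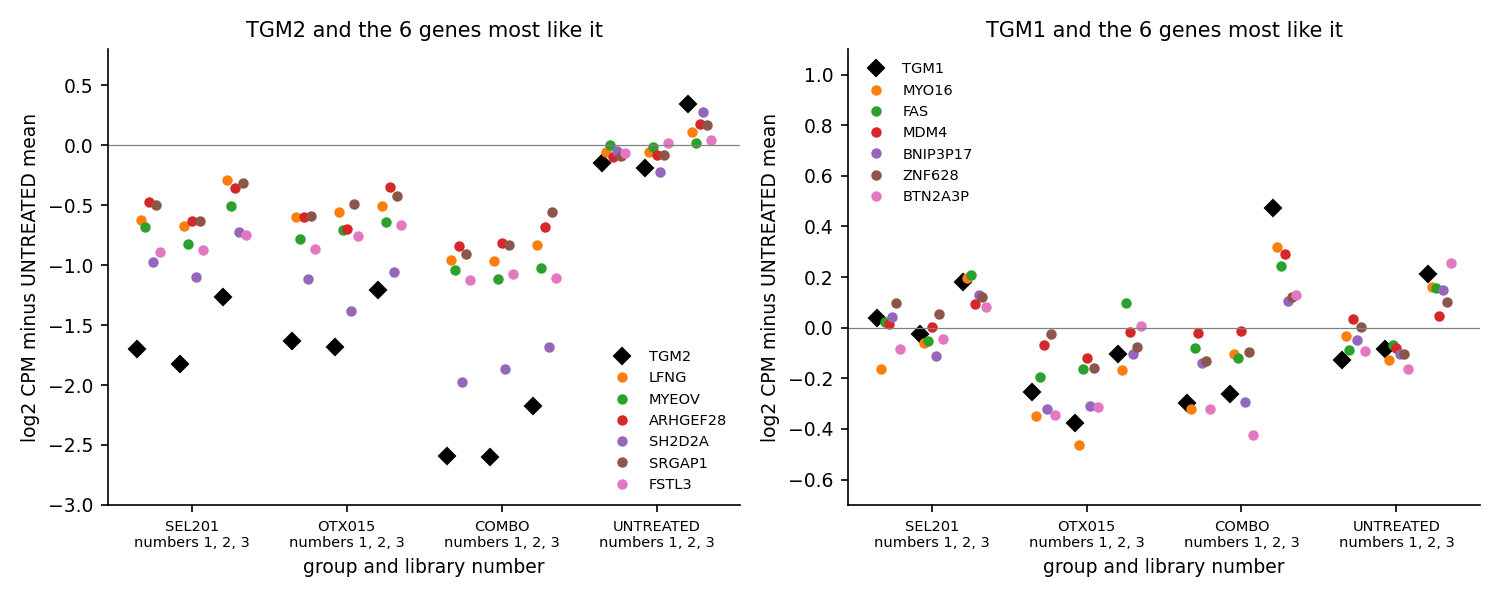
Log2 CPM minus the UNTREATED mean in each library, by group and, from left to right within a group, library numbers 1, 2 and 3, for TGM2 (left, black diamonds) and TGM1 (right, black diamonds) and the 6 genes most correlated with each (coloured points). The 6 genes beside TGM2 are lower in the same groups by smaller amounts, and TGM1 and its 6 genes are higher in library 3 of COMBO than in its libraries 1 and 2.

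Genes of the transglutaminases' surroundings were read from 6 lists, and those described are the 3 to 6 members of each with the largest change in COMBO among the called ones. The shares of all genes called in either direction were 21.2% with SEL201, 48.0% with OTX015 and 57.8% with COMBO, or 37.1%, 59.6% and 67.7% with the replicate block. A share of called members near these is not a result about a list. Of the 9 measured extracellular substrates and surface partners of TGM2, 4 were higher and 5 lower with COMBO, with a median log2 change of -0.39 beside 0.00 for all genes. With SEL201 3 were higher and 3 lower (5 lower with the replicate block), and with OTX015 4 and 4 (5 lower with the block). SPP1, the secreted matrix protein osteopontin, fell by 2.05 with COMBO on the log2 scale, at 21.7 ± 2.88 CPM in COMBO and 90.4 ± 9.06 CPM in UNTREATED (edgeR adjusted p = 5.08e-09). MDK, the growth factor midkine, fell by 1.39 and LRP1, an endocytic receptor for TGM2, by 0.99. SDC2, a cell-surface heparan sulfate proteoglycan, rose by 1.15, LTBP1, the latent TGF-beta binding protein that TGM2 crosslinks to the matrix, by 0.87 and MFGE8, a bridging protein in uptake of dying cells, by 0.79.

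Of the 5 intracellular substrates and partners counted, 1 was higher and 2 lower with COMBO (median log2 change -0.04). The receptor genes ADRA1B, whose protein can signal through TGM2 as a G protein, and TBXA2R, the thromboxane receptor, fell by 0.91 and 0.83. MAPT, which encodes tau, rose by 0.36. With SEL201 1 was higher, close to the threshold (edgeR adjusted p = 0.049), and 2 lower, and with OTX015 0 and 1. With SEL201, ADRA1B did not pass without SEL201 replicate 1 or any 1 UNTREATED library (edgeR adjusted p = 0.053 to 0.114), nor TBXA2R without SEL201 replicate 1 or 3 or UNTREATED replicate 2 (0.0543 to 0.0626).

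Retinoic acid is a classical inducer of TGM2. Of 6 measured retinoid signalling genes, 1 was higher and 3 lower with COMBO (2 higher with the replicate block; median log2 change -0.04). The receptor gene RARB, itself a retinoid target, fell by 1.49 with COMBO, at 6.76 ± 0.852 CPM in COMBO and 18.9 ± 1.03 CPM in UNTREATED (edgeR adjusted p = 1.7e-07). Its log2 change was -0.70 with SEL201 and -1.16 with OTX015. CYP26B1, which breaks down retinoic acid and is induced by it, fell by 1.03 and the receptor gene RARA by 0.38, while RDH10, which makes retinal from retinol, rose by 0.48. With SEL201 1 was higher and 1 lower (2 and 2 with the block), and with OTX015 1 and 3. The higher one with SEL201 was RDH10 (edgeR adjusted p = 0.044), which did not pass in 12 of 24 alternative fits. Of 6 measured genes of the NF-kB, TGF-beta, STAT3 and HIF pathways, which can induce TGM2, 3 were higher and 1 lower with COMBO (median log2 change 0.21; 2 lower with the block). EPAS1, the HIF-2 alpha gene, rose by 0.80, TGFBR1 by 0.23 and REL, an NF-kB subunit gene, by 0.20, and the interleukin-6 receptor gene IL6R fell by 0.28. REL did not pass without COMBO replicate 3 (edgeR adjusted p = 0.127), UNTREATED replicate 2 (0.109) or the 4 number 3 libraries (0.0843), nor under upper quartile scaling (0.0774). With SEL201 1 was higher and 0 lower (1 lower with the block), and with OTX015 2 and 0.

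For TGM1, 7 of 36 listed cornified envelope genes and TGM1 partners were in the table, and 3 were higher and 2 lower with COMBO (median log2 change -0.03). GRHL1, an epidermal transcription factor gene, rose by 0.97, SPRR2D, a small proline-rich envelope protein gene, by 0.93 and the transcription factor gene KLF4 by 0.31. NIPAL4, an ichthyosis gene, fell by 0.78 and JUP, which encodes the junction protein plakoglobin, by 0.63. With SEL201 2 were higher (4 with the block) and 1 lower, and with OTX015 3 and 2 (3 lower with the block). Of 4 measured genes of polyamine metabolism, 2 were higher and 1 lower with COMBO (3 higher with the block; median log2 change 0.18). SAT1, which acetylates spermidine and spermine and so starts their breakdown, rose by 1.41 with COMBO, at 386 ± 9.6 CPM in COMBO and 146 ± 4.8 CPM in UNTREATED (edgeR adjusted p = 1.77e-11), by 0.48 with SEL201 and by 0.80 with OTX015. SMOX, the spermine oxidase gene, fell by 0.37 and ARG2, a mitochondrial arginase gene, rose by 0.26. With SEL201 1 was higher and 1 lower, and with OTX015 1 (2 with the block) and 1.

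**Figure D5:**
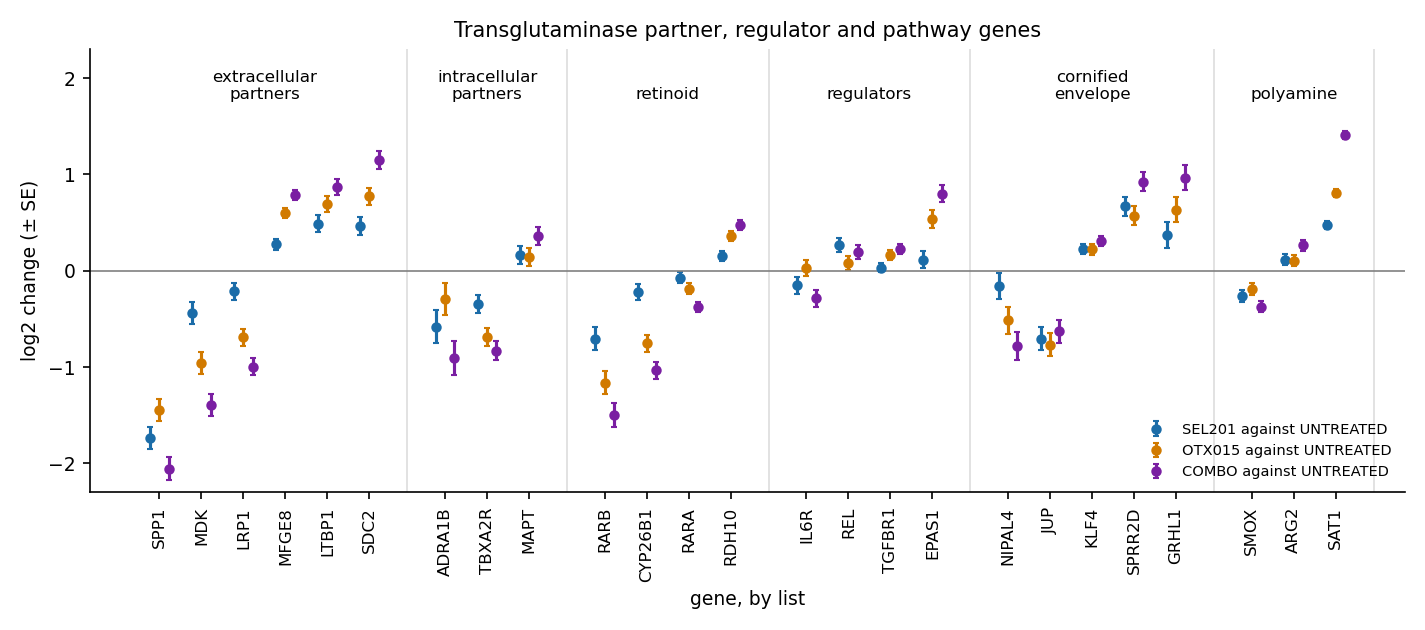
Log2 change against UNTREATED (± SE) with SEL201 (blue), OTX015 (orange) and COMBO (purple) for the list members with the largest called change in COMBO. Values run from -2.05 for SPP1 to 1.41 for SAT1 with COMBO, and each list holds genes on both sides of 0.

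The measured chromosomal neighbours changed in both directions. With COMBO 57.8% of all genes were called, 29.6% lower and 28.3% higher, so called neighbours are not a result about these loci. In the GENCODE order, the nearest measured genes to TGM2 were BLCAP, with 14 annotated genes between, and the clone-based AL391095.1, with 9 between. With COMBO their log2 changes were -0.02 (edgeR adjusted p = 0.779) and -0.17 (0.309). Farther out, the transcription factor gene TGIF2 fell by 1.41 with COMBO and SNHG11 by 0.36, ACTR5 rose by 0.16 and MROH8 was at 0.13 (adjusted p = 0.559). TGM1 lies directly between TINF2, a telomere protein gene, and RABGGTA, a Rab prenylation enzyme gene. With COMBO TINF2 rose by 0.46 (edgeR adjusted p = 1.68e-06) and RABGGTA fell by 0.20 (0.00309), while GMPR2, NEDD8, DHRS1 and NOP9 had log2 changes of -0.06 to 0.08 and did not pass. RPRD1B, on the strand opposite to TGM2, shares 394 exonic bases with it, 4.9% of the exonic bases of TGM2. It was not analysed here, and since the strand setting of the counting is not given, reads in the shared bases cannot be told apart.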

How the data were processed

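The deposited values are the authors' raw counts, a row for each gene and a column for each library. Per the labels' protocols, libraries were stranded, poly(A)-selected and read as pairs of 150 bases. The submitters' processing notes name the aligner STAR 2.5.4b, featureCounts, SAMtools 1.9, Trimmomatic, FastQC, DESeq2 and the build hg19. Annotation, strand setting and gene filters were not given in the sources used here. Symbols were used as deposited, and 8499 of 8579 matched GENCODE 29, used for lengths and gene order only because its build differs.

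Tests across genes used edgeR 4.0.16 under R 4.3.3, with TMM scaling, filterByExpr (8579 genes kept), glmQLFit and glmQLFTest on the 12 libraries with no covariate, and Benjamini-Hochberg adjustment at 0.05. Standard errors are the log2 change over the square root of F, and intervals use the t distribution. There were 7 contrasts. The steps were tested on simulated counts. Named genes are both members, up to 6 called members per list with the largest COMBO change, the 6 most correlated genes per member (Pearson, log2 of CPM plus 0.5; clone-based, antisense and unnamed genes skipped) and 3 measured neighbours per side. A further gene of the intracellular partner list is not reported here and not counted. The members and lists were chosen with earlier results of these data known.

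Libraries with the same number deviated together: correlations across genes of deviations from group means were 0.26 to 0.57 for the 18 pairs that share a number, and -0.46 to 0.19 for the 36 that do not. The numbers are therefore read as pairs, from the data. The fit reported does not use them; the replicate block, which lowers the biological coefficient of variation from 7.92% to 4.35%, is given where it changes a call of TGM2 or TGM1 or a list count against UNTREATED. No label names separate cultures; a p-value here reflects only how these libraries vary, which may be technical. No pair within a group agreed within sampling noise (chi-square per degree of freedom 6.34 or more). Alternatives were RLE, upper quartile or no scaling, DESeq2 1.42.0, no filter, a mean of at least 10 CPM, the block, the compared groups only, and leaving out libraries. Intervals cover the spread between libraries, and counting errors counting only.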

Additional observations from a re-analysis of the deposited data

Results flagged for a closer look

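The interaction asks whether the effect of one agent differed with the presence of the other. For 8 of the 51 named genes it passed in the edgeR fit of all 12 libraries with or without the replicate block. In the fit reported, which has no block, 2 passed, and the other 6 passed only with the block. Of all genes 0.280% passed without the block and 6.75% with it. The named list members were those with the largest called COMBO changes, and the correlated genes were picked by likeness to TGM2 or TGM1. FSTL3, MYEOV and ARHGEF28 are among the 6 genes most correlated with TGM2, so they partly repeat its pattern. The 8 of 51 is therefore not comparable with these shares. TGM2 had an interaction of 0.65 on the log2 scale with the replicate block (edgeR adjusted p = 2.98e-10; 0.397 without it), positive within all 3 library numbers. SPP1 had one of 1.13 (edgeR adjusted p = 0.0109; 0.0502 without UNTREATED replicate 2), and FSTL3 one of 0.50 (adjusted p = 0.022; 0.0523 to 0.0809 without any 1 of SEL201 replicates 1 and 2, OTX015 replicate 1, COMBO replicate 2 and UNTREATED replicates 2 and 3), both without the block. With the block JUP had 0.84 (edgeR adjusted p = 1.39e-06), MYEOV 0.32 (0.0466) and ARHGEF28 0.26 (0.0091), while SPRR2D had -0.32 (0.000625) and TGIF2 -0.20 (0.0182). Without the block the edgeR adjusted p was 0.0567 for JUP, 0.372 for MYEOV, 0.633 for ARHGEF28, 0.482 for SPRR2D and 0.44 for TGIF2. JUP did pass without the block in DESeq2 (0.85, DESeq2 adjusted p = 0.000249). Without the block and the 4 number 3 libraries, JUP (0.69, edgeR adjusted p = 0.0209) and TGM2 (0.65, edgeR adjusted p = 0.000848) passed too. With the block, MYEOV and TGIF2 did not pass without number 1 (0.343 and 0.237) or number 2 (0.26 and 0.293), nor ARHGEF28 without number 2 (0.272). For the genes that fell, a positive value means a COMBO level above the product of the single-agent shares.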

How the results depend on the processing

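The falls of TGM2 in the 5 comparisons with a fall kept their direction and passed under all alternatives run, and no comparison of TGM1 passed under any (edgeR, and DESeq2 where run; TGM1 could not be fitted under the mean of 10 CPM). Over the fits that leave out 1 library, the log2 change of TGM2 was -1.79 to -1.41 with SEL201, -1.68 to -1.32 with OTX015 and -2.62 to -2.28 with COMBO. The interaction of TGM2 was 0.45 to 0.83 in those fits (edgeR adjusted p = 0.175 to 0.686) and 0.63 to 0.66 under other scalings, and it did not pass in these or in DESeq2. It passed with the replicate block (0.65), without the 4 number 3 libraries (0.652), and, in fits chosen after seeing the data, with the block without number 1 (0.678), 2 (0.618) or 3 (0.653). OTX015 against SEL201 for TGM2 passed with the block (0.093) and with the block without number 3 (0.109). With the block, genes called were 3180 for SEL201, against 1820 without it, 1908 against 593 for COMBO against OTX015, 3414 against 2018 for OTX015 against SEL201 and 579 against 24 for the interaction. The interaction gave 119 calls in DESeq2, 72 without the 4 number 3 libraries and 4 to 23 without 1 library. COMBO against OTX015 gave 304 to 647 without 1 library. With the block and without number 1, 2 or 3, the interaction gave 326, 322 and 405 calls and COMBO against OTX015 1182, 1301 and 1393. The ratio test kept its side of 0.05 in all 14 alternatives. List counts moved by over 1.5 times in 242 of 2338 recomputed values, and of 4643 values of the other named genes 50 no longer passed and 67 newly passed. Among the named list members, the calls lost without 1 library were MDK, ADRA1B, TBXA2R, RDH10 and REL with SEL201, RARA, TGFBR1 and SMOX with OTX015 and REL with COMBO; the cause was not tested. TGM1 is limited by its 124 to 186 counts per library.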
